A study of Caenorhabditis elegans with 2 samples.

Results

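Cohesin and condensin are ring-shaped protein complexes that organise chromosomes. The genes of 10 of their subunits were followed through every deposited peak list: smc-1, smc-3 and scc-1 for cohesin, smc-4 and mix-1 for the paired SMC proteins of condensin, capg-1 and dpy-28 for condensin I, and capg-2, hcp-6 and kle-2 for condensin II. The genes were given by name, out of 19985 protein-coding genes in the Ensembl annotation of assembly WBcel235 (ce11), and all 10 were found. The gene smc-1 stands there as him-1 (WBGene00001860), and its RefSeq entry gives the product as structural maintenance of chromosomes protein 1.

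Chromatin immunoprecipitation with sequencing (ChIP-seq) had been done on intact Caenorhabditis elegans of strain RW12305, carrying the allele st12305[ceh-91::TY1::EGFP::3xFLAG], in which the homeobox gene ceh-91 was tagged at its own locus by CRISPR. The worms were young adults of 62.5 hours, grown from starved L1 larvae after bleaching, and an antibody against GFP recovered the chromatin. Both samples, biological replicates 1 and 2, form 1 group, with no untagged or untreated group among them, and 1 control alignment served both replicates per the deposited notes. Whole worms were used, so a site bound weakly in many cells and a site bound strongly in few cannot be told apart.

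Cohesin holds sister chromatids together from replication until anaphase, and a kleisin subunit closes the ring formed by the SMC-1 and SMC-3 proteins. Condensin compacts chromosomes for division, with SMC-4 and MIX-1 as its SMC proteins and separate sets of kleisin and HEAT-repeat subunits for condensin I and condensin II. In C. elegans a further condensin, the dosage compensation complex, shares MIX-1, CAPG-1 and DPY-28 with condensin I and lowers transcription from the X chromosomes of hermaphrodites. In the adult worm most dividing cells are germ cells.

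The promoter sequences that carry the peaks are printed first, for smc-3 and smc-4, which had listed peaks, and, for contrast, for mix-1 and scc-1, which had none in the conservative list. A listed peak is one in a thresholded list, and the conservative list is the one made by comparing the replicates. All are ce11 plus-strand sequence, read 5′ to 3′ with the gene on the right, and capitals mark the 21 bases centred on the summit. The smc-3 gene had 2 listed summits. The distal one lies at base 51 of III:11290020-11290120, in introns of mib-1 and gly-9, and the proximal one at base 80 of III:11290677-11290903, between the starts of mib-1 and smc-3. The smc-4 summit is at base 49 of III:4587331-4587500, between the starts of F35G12.7 and smc-4. The scc-1 summit is at base 58 of II:4698428-4698720, between the starts of rpn-5 and scc-1. The strongest mix-1 summit falls inside the gene, and only the stretch before it, II:10824082-10824245, between the starts of R06F6.12 and mix-1, is shown, without capitals.
smc-3 distal: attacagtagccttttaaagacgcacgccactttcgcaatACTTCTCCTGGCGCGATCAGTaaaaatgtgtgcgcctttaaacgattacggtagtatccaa
smc-3 proximal: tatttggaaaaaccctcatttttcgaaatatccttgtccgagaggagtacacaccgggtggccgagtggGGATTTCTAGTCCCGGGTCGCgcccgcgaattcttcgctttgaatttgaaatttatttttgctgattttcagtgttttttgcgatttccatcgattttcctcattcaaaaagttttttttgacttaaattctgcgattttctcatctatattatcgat
smc-4: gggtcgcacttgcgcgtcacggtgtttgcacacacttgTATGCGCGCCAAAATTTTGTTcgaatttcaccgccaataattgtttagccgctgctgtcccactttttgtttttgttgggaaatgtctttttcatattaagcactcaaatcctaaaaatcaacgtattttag
scc-1: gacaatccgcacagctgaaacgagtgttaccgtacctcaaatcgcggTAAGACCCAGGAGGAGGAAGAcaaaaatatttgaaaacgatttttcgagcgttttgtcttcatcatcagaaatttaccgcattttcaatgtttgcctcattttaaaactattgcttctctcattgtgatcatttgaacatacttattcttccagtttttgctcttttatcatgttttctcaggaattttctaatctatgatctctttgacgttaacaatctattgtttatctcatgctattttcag
mix-1: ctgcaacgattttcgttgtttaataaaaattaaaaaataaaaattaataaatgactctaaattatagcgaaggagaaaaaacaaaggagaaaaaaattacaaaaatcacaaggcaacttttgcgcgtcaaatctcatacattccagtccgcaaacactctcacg

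A summit was given to a gene when it fell in the window reaching from 1000 bp ahead of an annotated transcript start to 200 bp past it. In the conservative comparison all 10 genes had at least 1 ranked summit in that window, against 52.0% of protein-coding genes, and 3 of them, smc-3, smc-4 and hcp-6, had a listed one. Listed summits were found at 7.37% of all protein-coding genes and at 14.2% of the genes with a ranked summit. Thus 1 of 3 cohesin genes, 1 of 2 condensin SMC genes, 1 of 3 condensin II genes and 0 of 2 condensin I genes were listed. The list from pooled pseudoreplicates held 4 of the 10, with mix-1 added, against 7.65% of protein-coding genes. The list of replicate 1 held the same 3 as the conservative list (6.06% of protein-coding genes), and that of replicate 2 held smc-3 and smc-4 (5.32%). These counts describe 10 chosen genes and carry no test.

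The lists rank peaks by a signal value given by the authors, and each carries a global irreproducible discovery rate (IDR), which is low for peaks that rank high in both inputs. Every listed peak had a rate of at most 0.01. The conservative comparison ranked 53026 peaks and listed 1612, with a median listed signal of 123. Replicate 1 had 35497 ranked and 1180 listed peaks, replicate 2 had 37659 and 974, and the pooled comparison had 50055 and 1716. The lists hold no read counts, so depth is unknown, and signal is compared only within a list. Of the members' peaks, 0 were at or under the rate of 0.01 without being listed in any of the comparisons. Over all peaks there were 88 such peaks in the conservative comparison, 105 in the pooled one, 56 in replicate 1 and 108 in replicate 2. The members had only 4, 5, 4 and 3 listed peaks in that order, too few to read the 0 as particular to them.

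**Figure D1:**
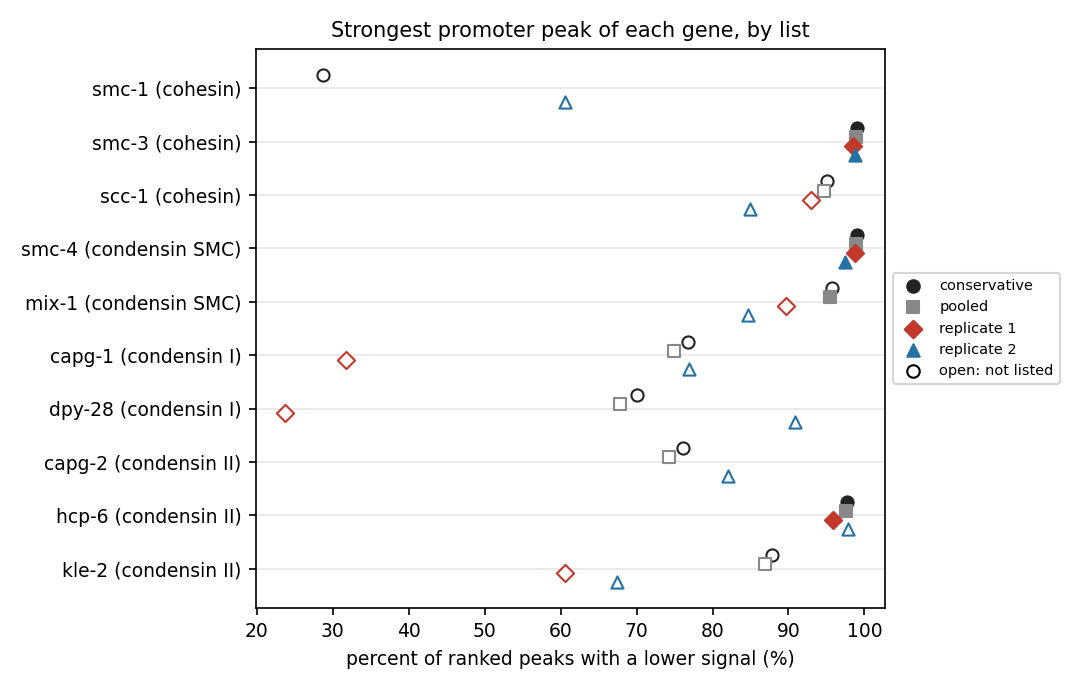
Strongest promoter peak of each gene (rows) placed by the percent of ranked peaks with a lower signal in its own list (horizontal axis), for the conservative and pooled comparisons and each replicate. Filled marks are listed peaks and open marks are not. The 4 marks of smc-3 lie between 98.4 and 99.0%, whereas those of dpy-28 run from 23.7 to 90.9%.

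The cohesin gene smc-3, which encodes an SMC subunit of the ring, was listed in all 4 comparisons with both of its summits. It had the strongest peak of the 10 genes in the conservative and pooled comparisons and in replicate 2, while smc-4 was stronger in replicate 1. The distal peak (III:11289915-11290224) lay 834 bp upstream of the start and had a signal of 173, rank 534 of the ranked peaks and 479 of the listed ones, at a rate of 3.38e-05. In replicate 1 it had a signal of 103.2 and rank 555 (rate 9.83e-05), and in replicate 2 a signal of 75.9 and rank 451 (rate 5.11e-05). It lay in the window of no other protein-coding start. Its summit was 606 bp into mib-1 and 510 bp into gly-9, both on the opposite strand. The proximal peak (III:11290601-11290910) lay 148 bp upstream, with a signal of 104.5, rank 1106 and a rate of 0.000838. It had a signal of 68.4 in replicate 1 (rank 1037, rate 0.00224) and of 39.7 in replicate 2 (rank 1198, rate 0.00674). This second summit was also 80 bp from the start of mib-1 and 176 bp from that of gly-9, so it lay in the promoter windows of all 3 genes. The summits in the replicates fell close to those of the conservative comparison, at 816 and 826 bp upstream for the distal peak and at 135 and 149 bp for the proximal one.

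The other cohesin genes had no listed peak in their windows. For scc-1, which encodes the kleisin of mitotic cohesin, the peak at II:4698330-4698639 had a signal of 64.3 and ranked 2638th, above 95.03% of ranked peaks, but its rate was 0.0489. Its signal was 44.6 in replicate 1 (rank 2509, rate 0.153) and 22.4 in replicate 2 (rank 5675, rate 0.851), and the pooled rate was 0.12. The summit lay 236 bp upstream of scc-1 and 58 bp upstream of the proteasome gene rpn-5. The nearest listed peak was a strong one on the other side of scc-1, 822 bp beyond its end, with a signal of 951 (II:4701626-4701960), ahead of the histone chaperone gene unc-85. The second SMC gene of cohesin, smc-1, had the weakest peak of the 10. Its signal was 21.4, lower than that of 71.3% of ranked peaks, with the summit 222 bp upstream in a coding exon of mzt-1 and a rate of 0.898. No summit was ranked in its window in replicate 1 or in the pooled comparison. In replicate 2 a peak of signal 16.5 lay 56 bp upstream of an internal start of smc-1, at a rate of 0.934. Thus the SMC genes of the cohesin ring were at opposite ends of the 10 genes.

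Of the condensin SMC genes, smc-4 was listed in all 4 comparisons. Its peak (III:4587224-4587533) had a signal of 168, rank 552 overall and 496 among listed peaks, and a rate of 0.000143, with the summit 122 bp upstream of smc-4 and 49 bp upstream of F35G12.7 on the other strand. Replicate 1 gave a signal of 118 (rank 440, rate 3.5e-05) and a summit 73 bp upstream, and replicate 2 a signal of 45.8 (rank 973, rate 0.00523) and a summit 128 bp upstream. The peak was placed higher in replicate 1 than in replicate 2 while both listed it. For mix-1, the SMC partner used by every condensin of the worm, the strongest peak (II:10824169-10824478) had a signal of 68.5 and ranked 2238th, with the summit 78 bp inside the 5′ untranslated region. Its rate was 0.0642 in the conservative comparison, 0.00804 in the pooled one, 0.425 in replicate 1 and 0.0163 in replicate 2. Only the pooled list held it. The signal in the replicates was 39.7 and 22.2, ranks 3657 and 5771. Listing of mix-1 therefore depended on which comparison was read, with the same pooled signal in both whole-series lists.

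**Figure D2:**
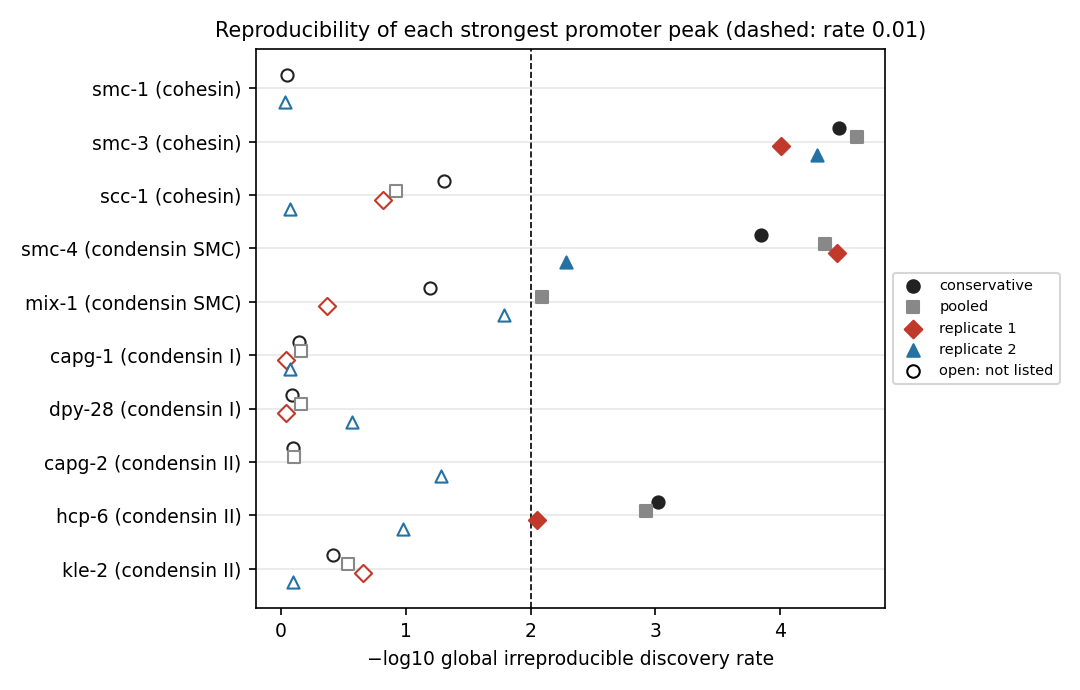
Reproducibility of the strongest promoter peak of each gene, as −log10 of the global irreproducible discovery rate (horizontal axis), in the 4 comparisons. The dashed line is a rate of 0.01; smc-3 and smc-4 lie right of it in all 4, hcp-6 in 3 and mix-1 in 1.

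Neither condensin I gene, both shared with the dosage compensation complex, came near the threshold. The CAP-G gene capg-1 had a signal of 40.2 (rank 12304, rate 0.71), with the summit 227 bp upstream. It was above 31.8% of ranked peaks in replicate 1 (signal 20.8) and above 76.9% in replicate 2 (signal 19.8), with rates of 0.909 and 0.839. The CAP-D gene dpy-28 had peaks of nearly the same signal 657 bp upstream (36.9) and 86 bp downstream (36.4) of its start, at rates of 0.808 and 0.692. The upstream summit lay in an intron of the neighbouring gene tasp-1. In replicate 1 the only ranked summit was the downstream one, with a signal of 19.1 at rank 27101 (rate 0.909). In replicate 2 the upstream one was stronger, with a signal of 25.6 at rank 3426 (rate 0.271). The replicates thus differed in the position and the rank of the strongest dpy-28 peak.

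The condensin II genes were split. The CAP-D gene hcp-6 had a listed peak (I:5164869-5165178) with a signal of 96.5, rank 1231 overall and 1123 among listed peaks, at a rate of 0.000945. The summit lay 124 bp upstream of hcp-6 and 140 bp upstream of let-630, on the other strand. Replicate 1 listed it with a signal of 56.0 (rank 1479, rate 0.00886). In replicate 2 it ranked higher, 809th with a signal of 51.5, but its rate was 0.105 and it was not listed. Rank and rate therefore went opposite ways between the replicates for this gene. The kleisin gene kle-2 had a signal of 48.6 (rank 6476, rate 0.382), with the summit 685 bp upstream. That summit was nearer, at 119 bp, to the start of C29E4.12. The strongest kle-2 peak was above 60.5% of ranked peaks in replicate 1 and 67.5% in replicate 2. The CAP-G gene capg-2, on chromosome V, had a signal of 39.8 (rank 12669, rate 0.794). Its summit lay 286 bp upstream and only 36 bp from the start of tsfm-1. The gene had no ranked summit in replicate 1 and a signal of 21.3 in replicate 2 (rank 6755, rate 0.0524).

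By the order of signal in the conservative comparison, smc-3 and smc-4 were followed by hcp-6, mix-1, scc-1, kle-2, capg-1, capg-2, dpy-28 and smc-1. The first 5 were all at or above the level that 95% of ranked peaks do not reach. That level is a share of peaks and not of genes. How many protein-coding genes have their strongest peak at it was not counted, so the 5 have no background here and nothing is read from them. The median over the 10 was 91.4%, and over the 10400 protein-coding genes with a ranked summit it was 73.3%. It was higher in the lists of like genes described below. There it was 98.3% over the related genes, 98.6% over kinetochore genes, 98.7% over replication licensing genes and 95.5% over meiotic axis and synapsis genes. Across the 8 members with a summit in both replicates, Spearman's rho of the ranks was 0.667, and across 6203 protein-coding genes it was 0.644. Both describe genes in libraries that share a control alignment. Of the neighbouring pairs in this order, hcp-6 over mix-1 and scc-1 over kle-2 kept their places in both replicates, and each other pair changed places in at least 1 replicate or had a member with no summit there.

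**Figure D3:**
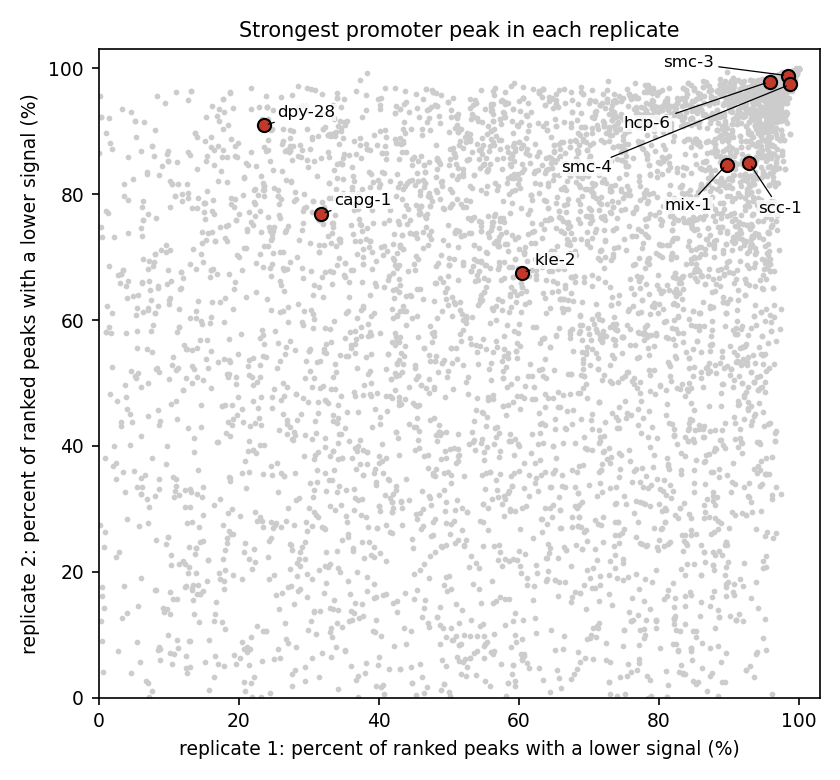
Strongest promoter peak of each protein-coding gene in replicate 1 (horizontal axis) and replicate 2 (vertical axis), as the percent of ranked peaks with a lower signal, for the 6203 genes with a summit in both. The 8 members with a summit in both are red, and smc-3, smc-4 and hcp-6 lie above 95% on both axes.

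The listed members all had a divergent neighbour, but so did the unlisted scc-1, mix-1 and capg-2. The arrangement was also common among all listed genes, at 951 of 1473. The nearest upstream protein-coding gene ran the opposite way for 6 members (smc-3, scc-1, smc-4, mix-1, capg-2 and hcp-6), with gaps of 164 to 321 bp, and 3 of these were listed. It ran the same way, in tandem, for the other 4 (smc-1, capg-1, dpy-28 and kle-2), and 0 of these were listed. Across the annotation, 11.3% of protein-coding genes with a divergent and 4.34% with a tandem upstream neighbour had a listed summit. This grouping was made after the values were seen, and it was not tested among the members. The proximal summit of smc-3 and the summits of smc-4 and hcp-6, at 148, 122 and 124 bp, all lay between the facing starts. The stronger, distal summit of smc-3 lay outside that gap, in introns of mib-1 and gly-9.

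The tandem neighbours ended close to the next start, 107 bp before smc-1 (mzt-1), 109 bp before dpy-28 (tasp-1), 102 bp before kle-2 (C29E4.12) and 562 bp before capg-1 (F26A3.1). In C. elegans many closely spaced tandem genes are transcribed together as operons, from a promoter ahead of the first gene. Listed peaks stood in the windows of 2 of these neighbours. The tasp-1 gene had a peak of signal 776, its summit 56 bp upstream of tasp-1 and 3880 bp upstream of dpy-28. For mzt-1, which encodes a small protein of microtubule-organising centres, a peak of signal 353 had its summit 949 bp upstream of the start. Another, of signal 211, lay nearer to smc-1, 1163 bp upstream of it. The starts of C29E4.12 and F26A3.1 had no listed summit. Whether any of these pairs forms an operon was not tested.

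**Figure D4:**
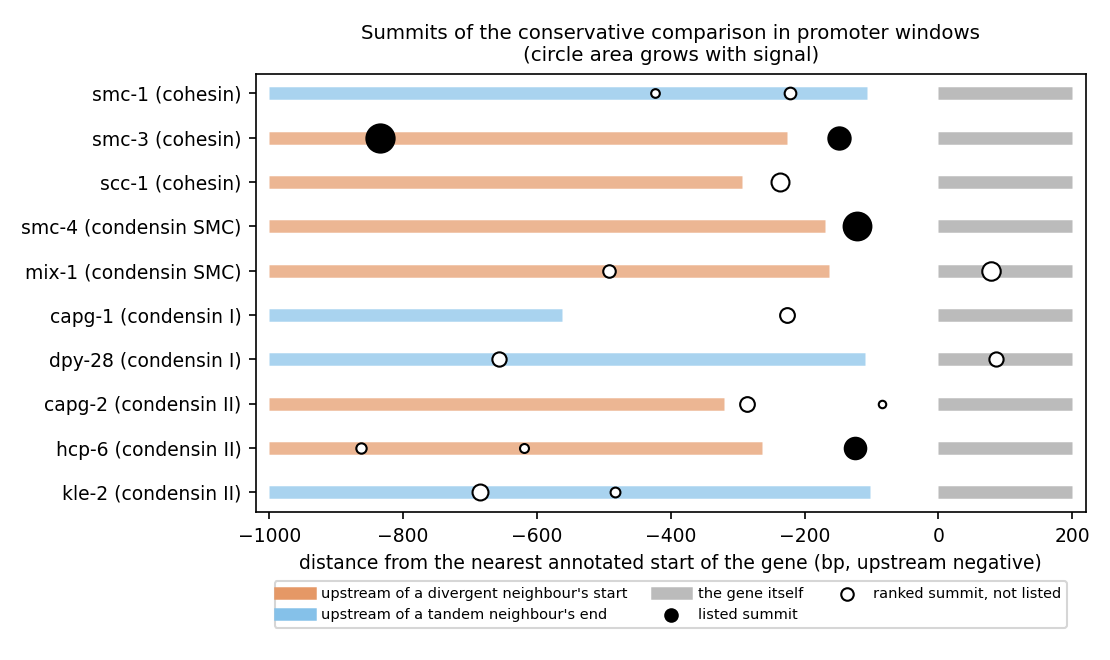
Ranked summits of the conservative comparison in the window of each gene, by distance from the nearest annotated start in bp (horizontal axis, upstream negative). Circle area grows with signal and filled circles are listed. Coloured bars mark what lies beyond the boundary of the upstream neighbour, and the summits at 148, 122 and 124 bp upstream of smc-3, smc-4 and hcp-6 lie in the gap between facing genes.

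Annotated starts in this species are often trans-splice sites, where a leader is joined to the transcript, and then lie downstream of where transcription begins. The bases AG, which end such an acceptor site, stood directly before the first start of 6 of the 10 genes (smc-1, smc-4, scc-1, capg-2, kle-2 and dpy-28) and of 27.6% of protein-coding genes. Distances given here are therefore from annotated starts and may not be distances from the start of transcription. In the conservative comparison the members held from 1 to 15 ranked summits within their gene bodies, the most in mix-1, and 0 listed ones; the pooled list held the mix-1 summit in the 5′ untranslated region.

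Short sequences were searched on both strands in windows of 50 bases to each side of the strongest summit of each gene. At this length the homeodomain core letters TAATTA were found at capg-2, and TAATTG at smc-4 and dpy-28; in all listed windows their shares were 2.48% and 4.22%, and in all ranked windows 3.04% and 6.11%. The letters TTTGAA, as in the cell cycle homology region, were found at smc-1, mix-1, scc-1, kle-2 and hcp-6, against 25.1% of listed and 21.1% of ranked windows. The letters TGCGTCT were found at smc-3 (distal summit), against 5.46% and 1.72%. With 30 bases to each side TAATTG was left at 1 gene (2.79% of listed and 3.63% of ranked windows). The letters TGCGTCT were then at 0 (3.47% and 1.05%). With 100 bases TAATTA was found at 3 (8% and 6.55%). Those of an E2F site, GCGGGAA (5.58% and 1.77%), and the repeat GAGAGA (10.4% and 6.66%) were found in 0 of the 10 windows. The GC content of the 4 listed windows averaged 48.0%, of all listed windows 44.6% and of all ranked windows 40.9%. With 30 bases to each side these averages were 52.0%, 46.0% and 41.2%, and with 100 bases 37.3%, 40.7% and 40.3%. Their order thus changed with the window length. The strongest windows of all 10 members averaged 39.7% with 50 bases to each side. At the proximal summit of smc-3, a run of 15 bases (III:11290733-11290747) matched an annotated tRNA gene elsewhere in the genome exactly. Of 1550 listed windows that overlap no tRNA gene, 12 (0.774%) held a match at least as long. That feature was looked for after the sequence had been read.

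Other genes of the same machinery gave a different count from class to class. Among the remaining cohesin subunits, 4 of 5 were listed: the meiotic kleisins coh-3 (signal 518), coh-4 (413) and rec-8 (395), and the core subunit gene scc-3 (136). Each shared its peak with another protein-coding start, bmk-1, pid-5, mex-5 and abcf-1 respectively. The kleisin gene coh-1, on X, was not listed (22.6). Among cohesin regulators, 5 of 6 were listed. The strongest was wapl-1 (373), for a release factor, whose peak also lay in the window of the histone variant gene htz-1. Next were the securin gene ify-1 (291), on a peak shared with rpl-22, and pqn-85, annotated as scc-2, a cohesin loader (239). The genes evl-14 and sep-1, the latter for separase, came after them. The loader gene mau-2 had no ranked summit. The kleisin gene of mitotic cohesin, scc-1, was thus not listed while the 3 meiotic kleisin genes were, each in all 4 comparisons.

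Of the members shared with the dosage compensation complex, only mix-1 was listed, and only in the pooled list. The 7 other genes of the complex had 0 listed in the conservative list, and 0 in each of the others. Their strongest peaks were at dpy-30, which is shared with histone methyltransferase complexes (60.6, rate 0.179), and at dpy-26, the kleisin of condensin I (38.7, rate 0.726). The SMC gene dpy-27 had 19.7, and sdc-1 and sdc-2, which lie on X, had 28.0 and 26.9. Over all protein-coding genes 7.37% were listed, so that a count of 0 in 7 genes is not apart from the background. The shares were 0.33% on X, with sdc-1 and sdc-2, 4.67% on V, with dpy-21, dpy-30 and sdc-3, 7.16% on IV, with dpy-26, and 13.4% on III, with dpy-27. Of the 10 members, 4 lie on III, 3 on I (12.2%), 2 on II (8.38%) and 1 on V. In the SMC-5/6 complex, which acts in DNA repair, the SMC genes smc-6 (469, a peak shared with pcs-1) and smc-5 (204) were listed and nse-1 and nse-4 were not. Of the segregation partners, 4 of 5 were listed, led by the topoisomerase gene top-2 (668, shared with npp-3), the chromokinesin gene klp-19 (147, shared with slc-36.1) and icp-1, which encodes INCENP (113, shared with Y39G10AR.9), with the survivin gene bir-1 after them. Aurora B kinase gene air-2 was not (51.2, rate 0.284).

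**Figure D5:**
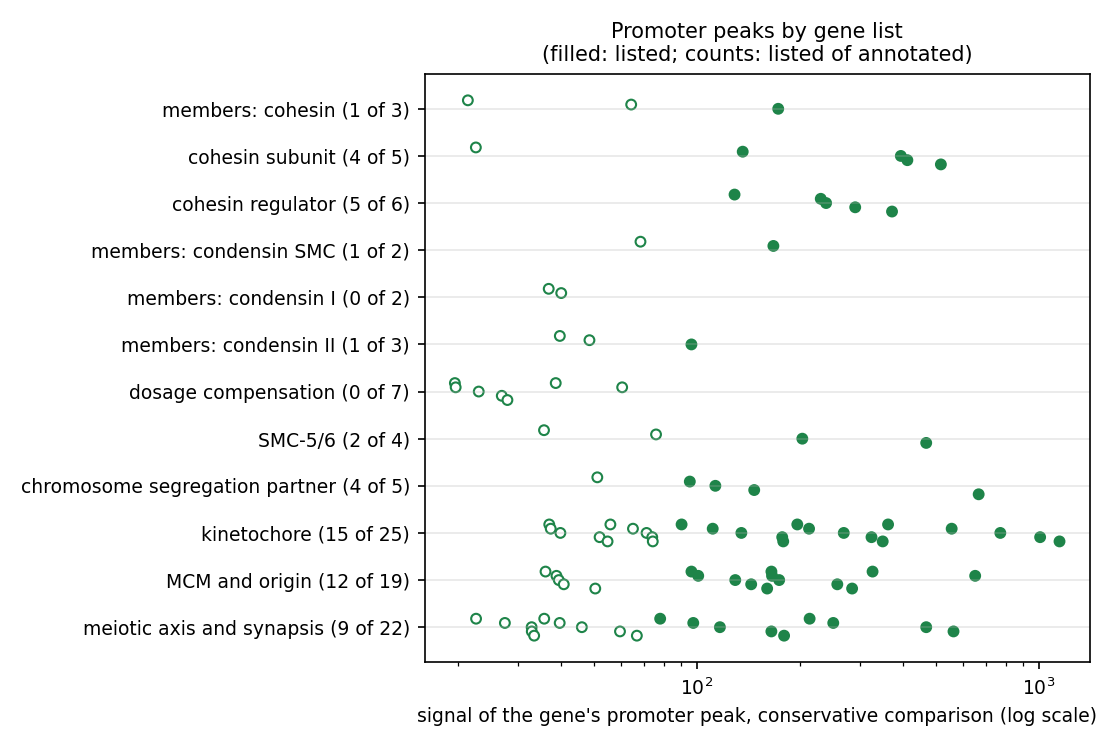
Signal of the promoter peak of each gene in the conservative comparison (horizontal log axis), by gene list, with listed peaks filled and the count listed of those annotated beside each name. Listed cohesin regulators run from 129 to 373. The 7 dosage compensation genes outside the members are all open and at or below 60.6. Genes with no ranked summit are not drawn. These are mau-2 among the regulators and cdt-1, orc-4, htp-1, him-8 and zim-3 in the comparison lists.

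Lists of other division genes give the members' count of 3 of 10 a setting, with no test of any difference made. Kinetochore and checkpoint genes were listed in 15 of 25, with a median listed signal of 269 and hcp-3, the centromeric histone, strongest (1151). Replication licensing genes were listed in 12 of 19 (median 166, mcm-2 strongest with 652) and meiotic axis and synapsis genes in 9 of 22 (median 180, syp-5 strongest with 564). The 3 listed members had a median of 168, and all 1473 protein-coding genes with a listed summit had a median of 149. By replicate signals, the genes most like smc-3 among 914 listed in both replicates were C28A5.1 (105 and 76.6, a log2 distance of 0.034) and the pair rab-11.1 and rpl-7 (106 and 77.3, 0.041), which share a peak.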

How the data were processed

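ChIP-seq peak lists were deposited for 2 biological replicates of 1 group, as 1 ranked and 1 thresholded list for each of 4 comparisons. Per the deposited notes, reads had been aligned to ce11 beside 1 shared control alignment, and peaks had been put through the irreproducible discovery rate procedure. Aligner and peak caller were not given in the sources used here. The authors' lists hold a signal value per peak, the −log10 of a q-value and of the global rate, and a score capped at 1000, all as deposited. Pooled and conservative lists both carry the signal of the pooled reads. Read depth is unknown, so no counting interval is given.

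Summits were assigned to Ensembl release 115 starts (from 1000 bp ahead of the start to 200 bp past it) with Python 3.11.15, pandas 2.3.3 and numpy 2.4.6. The percent of ranked peaks with a lower signal was computed per list. Sequence was read from RefSeq WBcel235. The code was tested on simulated data. With 1 group there was no comparison between groups, and no test was made. Named were all members, genes sharing a member's listed summit, related genes with a listed summit (the 3 strongest of each class with values), the 3 genes nearest to smc-3 in replicate signals and the strongest gene of each comparison list. Related genes without a listed summit, tandem neighbours and genes beside unlisted member peaks were named after their values were seen. Sequences shown are those of the listed members and of the highest-ranked unlisted one, mix-1; none is shown for hcp-6, and scc-1 and the second smc-3 stretch were added after the data were seen. The members, lists and groupings were chosen with earlier results of these data known. Alternatives changed the list, the window, the rate, the assignment rule and the replicate.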

Additional observations from a re-analysis of the deposited data

How the results depend on the processing

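The count of listed members, 3 in the conservative list, was 4 in the pooled list (with mix-1), 3 in replicate 1 alone and 2 in replicate 2 alone (smc-3 and smc-4). It was 3 with a window of 500 bp upstream and 100 bp downstream, and 4 with 2000 and 500 bp, where smc-1 was added and the tandem count went from 0 to 1. It was 3 at a rate of 0.001 and 3 when any base of a peak could touch the window. Only smc-3 and hcp-6 (2) were listed when a summit went to 1 start alone, the nearest of those whose windows held it. The smc-4 summit then went to F35G12.7, whose start is nearer. The smc-3 gene stayed through its distal summit, which lay in no other protein-coding window. That summit was nearer to the starts of mib-1 (606 bp) and gly-9 (510 bp), but too far inside those genes for their windows. Under this rule the related genes fell from 15 to 9 and all protein-coding genes from 1473 to 926. The median percent of ranked peaks with a lower signal, 91.4, ran from 84.8 to 91.3 with 1 replicate left out and was 85.9 with the narrower window. It was 94.7 in the pooled comparison and 95.4 with the wider window. Each median is over the members with a ranked summit, 8 in replicate 1, 9 in the pooled comparison and 10 in replicate 2. The median distance of the members' strongest listed summits ran from -477 to -124 bp with 1 replicate left out. The value of -477 bp is over the 2 genes listed in replicate 2, smc-3 at -826 and smc-4 at -128 bp. No paired analysis was possible because there was 1 group. The letters TTTGAA were in 5 of the members' windows at the reported length, against 25.1% of listed and 21.1% of ranked windows. With 30 bases to each side of the summit they were in 1 (14.4% and 13.2%), and with 100 in 6 (46.3% and 38.7%). The lists hold no read counts, so depth could not be weighed.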
